A study of Mus musculus with 4 samples.

Results

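The genes described here belong to families of amino acid and neurotransmitter carriers. They were chosen by name: every probe whose gene symbol in the deposited annotation is Slc1a, Slc3a, Slc6a, Slc7a, Slc36a, Slc38a or Slc43a followed by a number. The rule took 66 of 25697 probes, which stand for 48 of 17876 genes: 17 of family Slc6, 13 of Slc7, 7 of Slc1, 5 of Slc38, 3 of Slc36, 2 of Slc43 and 1 of Slc3. The rule itself reads no measured value, but the members were chosen with earlier results of these data known. RNA came from E14 cells, a line of mouse embryonic stem (ES) cells, which had been stably infected with viruses expressing short hairpin RNA (shRNA), directed either against AKAP95, a nuclear anchoring protein encoded by Akap8, or a scrambled control. How many shRNA sequences were used is not given in the labels. For differentiation, cells lost LIF, the cytokine that holds ES cells undifferentiated, for 4 days, and then received 1 µM all-trans retinoic acid (RA) for 4 days as a monolayer. Undifferentiated cells stayed on gelatin in medium with LIF. The design crossed both factors into 4 groups: RA-treated knockdown, RA-treated scramble, undifferentiated knockdown and undifferentiated scramble cells. Each group was 1 Illumina bead array with no replicate, and whether a cell population was 1 clone is not given in the labels. The RA effect below is the difference between the culture conditions, in which RA cannot be told apart from the loss of LIF and from time in culture.

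Amino acid carriers set which amino acids a cell can take up, exchange or release. The Slc7 family holds carriers of arginine and lysine and a set of light chains. Light chains such as Slc7a5, Slc7a6 and Slc7a7 reach the membrane when bound to the heavy chain Slc3a2 and exchange 1 amino acid for another. Slc1 carriers move glutamate or small neutral amino acids with sodium, Slc38 carriers move glutamine and alanine, Slc36 carriers are proton-coupled, and Slc6 carriers take up neurotransmitters, taurine, creatine, betaine and neutral amino acids. ES cells depend on a steady supply of amino acids for self-renewal, and several of the carrier genes are known targets of ATF4, the transcription factor of the amino acid response.

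Between 11344 and 12156 probes (44.1% to 47.3%) were detected per array, at a detection p-value under 0.01, and the median signal of an array lay between 75.1 and 82.8. Akap8 had signals of 199.7 in knockdown and 296.8 in scramble cells after RA, and of 139.1 in undifferentiated knockdown and 272.2 in undifferentiated scramble cells. Its log2 difference, knockdown minus scramble, was -0.77 after RA and -1.19 before it. The 8 markers of pluripotent cells were all detected in both undifferentiated populations. Their summed signal was 3468 in knockdown and 1623 in scramble cells after RA, against 37000 in undifferentiated knockdown and 39660 in undifferentiated scramble cells. These markers were thus low in both arrays labelled RA-differentiated and high in both labelled undifferentiated. After RA the summed signal of 10 trophoblast markers was 3973 in knockdown and 1267 in scramble cells, and that of 9 neural markers was 1516 in knockdown and 3584 in scramble cells. Before RA the neural sum was 3036 in knockdown and 2660 in scramble cells, of which Stmn2 gave 2290 and 1917, so in knockdown cells the sum was lower after RA than before it. The sums after RA of 9 extraembryonic endoderm markers (2108 in knockdown and 3664 in scramble cells), 7 fibroblast markers (2156 in knockdown and 3367 in scramble cells) and 6 mesoderm, endothelium and blood markers (498.5 in knockdown and 412.6 in scramble cells) differed less. These sums include probes at background. Of the markers compared after RA, 2 of 6 endoderm and 2 of 4 fibroblast markers were at least 2-fold lower in knockdown than in scramble cells. In the mesoderm, endothelium and blood list 1 of 2 was at least 2-fold higher. Pax6, Sox1, Afp, Ttr, Prl3d1 and Tpbpa were not detected on any array.

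Of the 48 carrier genes, 22 passed detection on 1 or more arrays, and 14 of these passed on all 4. The number detected was 17 in RA-treated knockdown, 18 in RA-treated scramble, 18 in undifferentiated knockdown and 17 in undifferentiated scramble cells. The 26 genes detected on no array had signals of 49.2 to 84.5, close to the array medians. They included Slc1a2, Slc1a5, Slc1a7, Slc6a3, Slc6a4, Slc6a5, Slc6a7, Slc6a14, Slc6a17, Slc6a19, Slc6a20, Slc7a1, Slc7a2, Slc7a8, Slc7a9, Slc7a10, Slc7a11, Slc7a12, Slc7a13, Slc36a1, Slc36a3, Slc38a1, Slc38a3, Slc43a2 and Slc43a3. The genes not detected included both Slc43 members, the only ones of that family on the array under the rule. A signal at background shows that the probe gave no measurable level, and levels of different probes are not set against each other here.

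Signals below are the deposited bead intensities. Folds and log2 differences come from background-corrected, quantile-normalized values, and can be larger than, smaller than or opposite to the plain ratio of 2 signals. Slc6a15 in knockdown cells, with signals of 102.3 after RA and 91.0 before it, had a log2 difference of -0.12. A gene was compared when either array of the pair detected it. A side that was not detected was set to the lowest value among the detected probes of its array, and such a fold is written as "at least". Differences of at least 2-fold are counted without a test, since each group had 1 array. In bulk RNA, fewer cells of a type and less RNA per cell cannot be told apart.

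With RA, carrier genes at least 2-fold lower outnumbered those at least 2-fold higher in both populations. In knockdown cells 6 of the 20 carriers compared were at least 2-fold lower, beside 9.82% of all 9530 genes compared, and 2 were at least 2-fold higher, beside 12.4% of all genes. In scramble cells 6 of 20 were lower, beside 11.8% of all 9509 genes compared, and 2 were higher, beside 14.2%. The 6 lower genes, Slc7a3, Slc7a7, Slc7a5, Slc38a5, Slc1a1 and Slc6a12, passed the 2-fold rule in both populations, and Slc1a3 was the gene past it upward in both. The median log2 RA difference of the carriers was -0.61 in knockdown and -0.42 in scramble cells, while the median of all genes was near 0 in each, at 0.003 and -0.016. With the deposited median-normalized values the carrier medians were smaller, at -0.34 in knockdown and -0.25 in scramble cells. The medians of all genes compared were then 0.118 in knockdown and 0.048 in scramble cells.

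The RA effect was also tested over both populations in an additive limma model of the 4 arrays, with RA and shRNA as terms and 1 residual degree of freedom, and p-values adjusted over 9875 genes. In this model a side that was not detected kept its own value near background, so fitted effects can exceed the folds written as "at least". Of the 22 detected carriers, 8 fell with RA (36.4%) and 2 rose (9.09%), at an adjusted p under 0.05, against 16.2% of all genes tested that fell and 18.8% that rose. Among genes detected on all 4 arrays, 6 of 14 carriers fell (42.9%) and 1 rose (7.14%), against 15.4% and 16.5% of 7591 genes. The genes that fell were Slc7a3, Slc7a7, Slc38a5, Slc1a1, Slc7a5, Slc6a12, Slc1a4 and Slc6a6, and those that rose were Slc1a3 and Slc6a13. The median fitted effect of the 22 carriers was -0.43, against 0.01 for all genes. The spread was wide in both sets: the 5th and 95th percentiles of all genes were -1.56 and 1.79, and the carriers ran from -5.29 to 2.65. Residual error and any difference of the RA effect between populations are held together in this model.

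**Figure D1:**
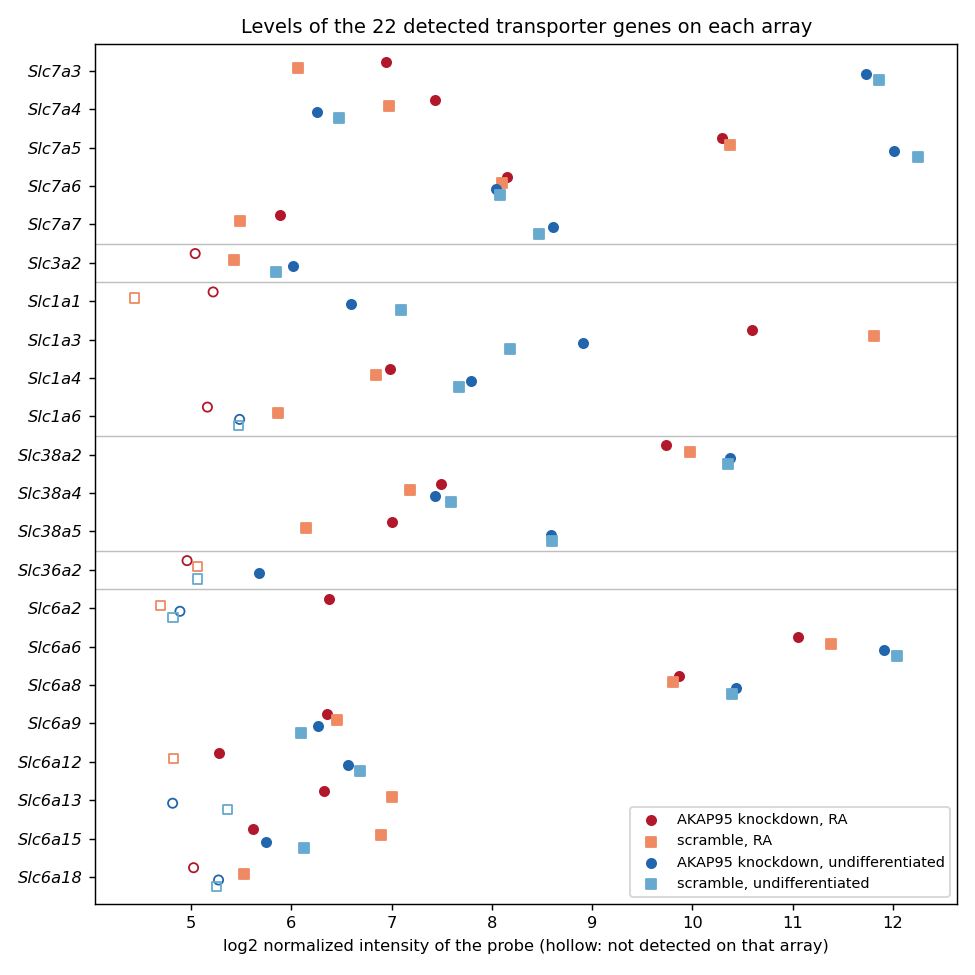
Log2 normalized intensity (horizontal axis) of the 22 detected carriers, 1 gene per line and 1 point per array, hollow where the gene was not detected on that array. Both RA-treated arrays lie left of both undifferentiated arrays for Slc7a3, Slc7a5, Slc7a7 and Slc38a5 and right of them for Slc1a3; points of different genes are not comparable, since each comes from its own probe.

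**Figure D2:**
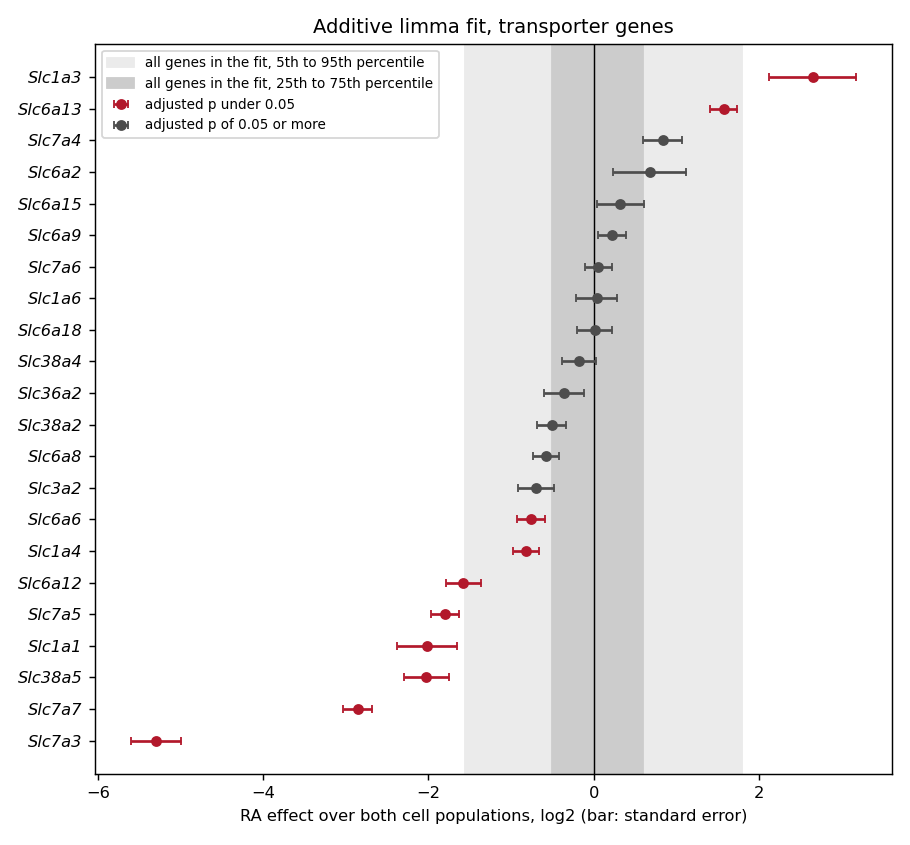
RA effect on the log2 scale (horizontal axis) of the 22 detected carriers in the additive limma fit, with standard errors as bars and adjusted p under 0.05 in red. Grey bands give the 5th to 95th and 25th to 75th percentiles of all 9875 genes; Slc7a3 at -5.29 and Slc1a3 at 2.65 are the carriers at either end.

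Promoter letters are shown for Slc7a7 and Slc1a3, the carriers with the largest decrease and increase past 2-fold in both populations among those with a window in the table used here. Slc7a3, whose decrease was larger, is named only. The windows are RefSeq promoter sequences of build GRCm38.p6, 250 bases before to 50 after a transcript start, given on the gene's strand, and matched motif letters are in capitals. Slc7a7 lies on the minus strand at chr14:54417895-54418194, and Slc1a3 lies on the minus strand at chr15:8710758-8711057.
Slc7a7: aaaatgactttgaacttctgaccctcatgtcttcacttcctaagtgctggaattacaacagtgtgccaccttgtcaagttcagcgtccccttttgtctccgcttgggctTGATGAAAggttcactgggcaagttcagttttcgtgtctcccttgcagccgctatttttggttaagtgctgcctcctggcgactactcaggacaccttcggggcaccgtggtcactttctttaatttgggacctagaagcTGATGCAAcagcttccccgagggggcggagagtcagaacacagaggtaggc
Slc1a3: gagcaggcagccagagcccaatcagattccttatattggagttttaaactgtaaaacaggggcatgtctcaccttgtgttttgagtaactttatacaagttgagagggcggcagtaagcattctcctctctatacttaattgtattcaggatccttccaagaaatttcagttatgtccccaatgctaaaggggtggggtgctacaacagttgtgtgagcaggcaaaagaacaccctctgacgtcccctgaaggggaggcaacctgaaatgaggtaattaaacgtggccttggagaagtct
Capitals in the Slc7a7 window mark both matches to TGATGNAA, the core letters of the amino acid response element to which ATF4 binds with C/EBP partners. They stand at bases 110 to 117 and 250 to 257 of the window. The Slc1a3 window held no match to TGATGNAA, to ATTTGCAT, the octamer of POU factors, or to AGGTCA, the hexamer of nuclear receptors, on either strand. Windows were given for 30 of the 48 carriers. TGATGNAA was found in 3 of the 30 (10%; Slc1a4, Slc7a7 and Slc7a11), against 4.51% of 27025 genes with a window. ATTTGCAT was found in 2 (6.67%; Slc6a12 and Slc7a11), against 1.97% of genes, and AGGTCA in 6 (20%), against 18.13%. Of the 8 carriers that fell with RA, 5 had a window. TGATGNAA was in 2 of these (Slc1a4 and Slc7a7), AGGTCA in 2 (Slc6a12 and Slc7a7) and ATTTGCAT in 1 (Slc6a12). The Slc7a7 sequence shown is window 1 of its 5. Its TGATGNAA matches lay in windows 1 and 2, and its AGGTCA match lay in window 4, which is not shown. Of the 2 that rose, Slc6a13 held AGGTCA. Genes with several starts have several windows, 5 for Slc7a7, which gives them more chances of a match, and a match of letters is not a bound site.

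The Slc7 family held the largest decreases among the carriers. Slc7a3, a carrier of arginine, lysine and ornithine on chromosome X, had signals of 192.2 in knockdown and 121.5 in scramble cells after RA, against 3386 in undifferentiated knockdown and 3887 in undifferentiated scramble cells. Both RA-treated arrays lay far below both undifferentiated arrays, and the knockdown array was the higher of the RA-treated pair. Slc7a3 was 27.7-fold lower with RA in knockdown and 55.6-fold lower in scramble cells (log2 differences -4.79 and -5.80; without background correction -4.36 and -5.07), and it fell by 5.29 on the log2 scale in the limma fit (SE 0.30, adjusted p = 0.00981). Its second probe was not detected on any array. The 8 pluripotent markers, whose sum was also higher in RA-treated knockdown than in RA-treated scramble cells, all fell in the same fit, and their part in the Slc7a3 result was not tested.

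Slc7a7, the light chain that exchanges arginine and lysine for neutral amino acids, had signals of 115.2 in knockdown and 95.85 in scramble cells after RA, against 389.2 in undifferentiated knockdown and 366.5 in undifferentiated scramble cells. Its log2 RA difference was -2.73 in knockdown cells (6.61-fold lower) and -2.99 in scramble cells (7.91-fold lower), against -2.06 and -2.15 without background correction and -1.88 and -2.07 with the deposited median-normalized values. It fell in the fit (fitted log2 effect -2.86, SE 0.17, limma adjusted p = 0.00981). Its second probe gave log2 RA differences of -3.01 in knockdown and -2.98 in scramble cells, so both probes of this gene moved alike. Slc7a5, the light chain that imports leucine and other large neutral amino acids, had signals of 1394 in knockdown and 1452 in scramble cells after RA, against 4110 in undifferentiated knockdown and 5106 in undifferentiated scramble cells. It was 3.28-fold lower with RA in knockdown and 3.68-fold lower in scramble cells, and it fell by 1.80 on the log2 scale in the fit (SE 0.17, limma adjusted p = 0.0112). The RA-treated signals stayed well above background for Slc7a5 and were close to it for Slc7a7.

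The other detected Slc7 genes were not lower with RA. Slc7a4, a relative of the cationic carriers, had signals of 249.8 in knockdown and 189.3 in scramble cells after RA, against 109.7 in undifferentiated knockdown and 122.5 in undifferentiated scramble cells. It was 2.25-fold higher with RA in knockdown and 1.41-fold higher in scramble cells, and its fitted effect of 0.84 did not pass the test (SE 0.24, limma adjusted p = 0.0649). Slc7a6, a light chain with the same kind of exchange as Slc7a7, had signals of 370.2 in knockdown and 357.3 in scramble cells after RA. Its signals in undifferentiated cells were lower, at 269.5 in knockdown and 286.8 in scramble cells. On normalized values Slc7a6 differed little between conditions, with log2 RA differences of 0.11 in knockdown and 0.01 in scramble cells. Slc3a2, the shared heavy chain of Slc7a5, Slc7a6 and Slc7a7, was near background throughout, with signals of 80.83 in RA-treated knockdown, where it was not detected, and 93.69 in RA-treated scramble cells, against 99.73 in undifferentiated knockdown and 96.07 in undifferentiated scramble cells. It did not pass the test (fitted log2 effect -0.70, SE 0.22, limma adjusted p = 0.0776), and it had 1 probe.

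In the Slc1 family, RA-treated cells had more Slc1a3 and less Slc1a1 and Slc1a4. Slc1a3, the glutamate and aspartate carrier known from astrocytes and radial glia, had signals of 1659 in knockdown and 3689 in scramble cells after RA, against 466.8 in undifferentiated knockdown and 304.6 in undifferentiated scramble cells. Both RA-treated arrays were above both undifferentiated arrays, and the order of knockdown and scramble turned between the conditions. Slc1a3 was 3.21-fold higher with RA in knockdown and 12.4-fold higher in scramble cells, and it rose in the fit (log2 effect 2.65, SE 0.53, limma adjusted p = 0.032). Of the 5 other astrocyte and radial glia markers measured, Gfap, Aqp4, Fabp7 and S100b were not detected on any array, and Aldh1l1 was detected in the undifferentiated arrays alone. Neural markers were also lower in RA-treated knockdown than in RA-treated scramble cells, in 5 of the 6 compared by at least 2-fold, and their part in the Slc1a3 difference was not tested.

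Slc1a1, a neuronal and epithelial glutamate carrier, had signals of 87.02 in knockdown and 59.73 in scramble cells after RA, both not detected, against 125.8 in undifferentiated knockdown and 164.5 in undifferentiated scramble cells. It was at least 2.52-fold lower with RA in knockdown and at least 3.32-fold lower in scramble cells, and it fell in the fit (log2 effect -2.02, SE 0.37, limma adjusted p = 0.0275). Without background correction the knockdown difference was -0.77, and with the deposited median-normalized values the differences were -0.64 in knockdown and -0.98 in scramble cells, short of 2-fold. The second probe of Slc1a1, also detected, gave log2 RA differences of -0.84 in knockdown, short of 2-fold, and -1.93 in scramble cells, on values without bounds. The fit called neither Slc1a1 (adjusted p = 0.0641) nor Slc1a3 (adjusted p = 0.0783) when genes detected on no array were kept in it. Slc1a4, a carrier of alanine, serine and cysteine, had signals of 196.0 in knockdown and 178.0 in scramble cells after RA, against 233.2 in undifferentiated knockdown and 222.8 in undifferentiated scramble cells. The RA difference was 1.76-fold lower in knockdown and 1.77-fold lower in scramble cells, below the 2-fold rule, but Slc1a4 fell in the fit (log2 effect -0.82, SE 0.16, limma adjusted p = 0.0318). That call was lost with the deposited median-normalized values (adjusted p = 0.0725) and with median scaling (adjusted p = 0.0548). Slc1a6, a glutamate carrier of cerebellar neurons, was detected in RA-treated scramble cells alone, at a signal of 111.7, and its fitted RA effect was 0.04.

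Of the Slc38 genes, Slc38a5 was lower with RA and the readings of Slc38a2 differed by probe. Slc38a5, a glutamine, histidine and asparagine carrier on chromosome X, had signals of 198.6 in knockdown and 126.1 in scramble cells after RA, against 384.5 in undifferentiated knockdown and 398.5 in undifferentiated scramble cells. It was 3.02-fold lower with RA in knockdown and 5.49-fold lower in scramble cells (log2 -2.46, against -1.79 with the deposited median-normalized values), and it fell in the fit (log2 effect -2.03, SE 0.27, limma adjusted p = 0.0173). As with Slc7a3, the decrease was the smaller one in knockdown cells, a difference that was not tested. Slc38a4, a carrier of neutral and cationic amino acids, had log2 RA differences of 0.06 in knockdown and -0.41 in scramble cells. Slc36a2, a proton-coupled carrier of glycine, proline and alanine, was detected in undifferentiated knockdown cells alone, at a signal of 89.0.

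Slc38a2, a widely expressed glutamine and alanine carrier induced when amino acids run short, was read from the brightest of its 3 probes. This probe had signals of 989.3 in knockdown and 1141 in scramble cells after RA, against 1273 in undifferentiated knockdown and 1305 in undifferentiated scramble cells, with a fitted log2 effect of -0.51 (SE 0.17, limma adjusted p = 0.0958). A second detected probe had signals of 1394 in knockdown and 1427 in scramble cells after RA, against 520.6 in undifferentiated knockdown and 695.6 in undifferentiated scramble cells. Its log2 RA differences were 1.22 in knockdown and 0.88 in scramble cells, and it rose in a fit of every detected probe (log2 effect 1.05, SE 0.19, limma adjusted p = 0.0216). The remaining probe was not detected on any array. No direction is therefore given for Slc38a2.

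**Figure D3:**
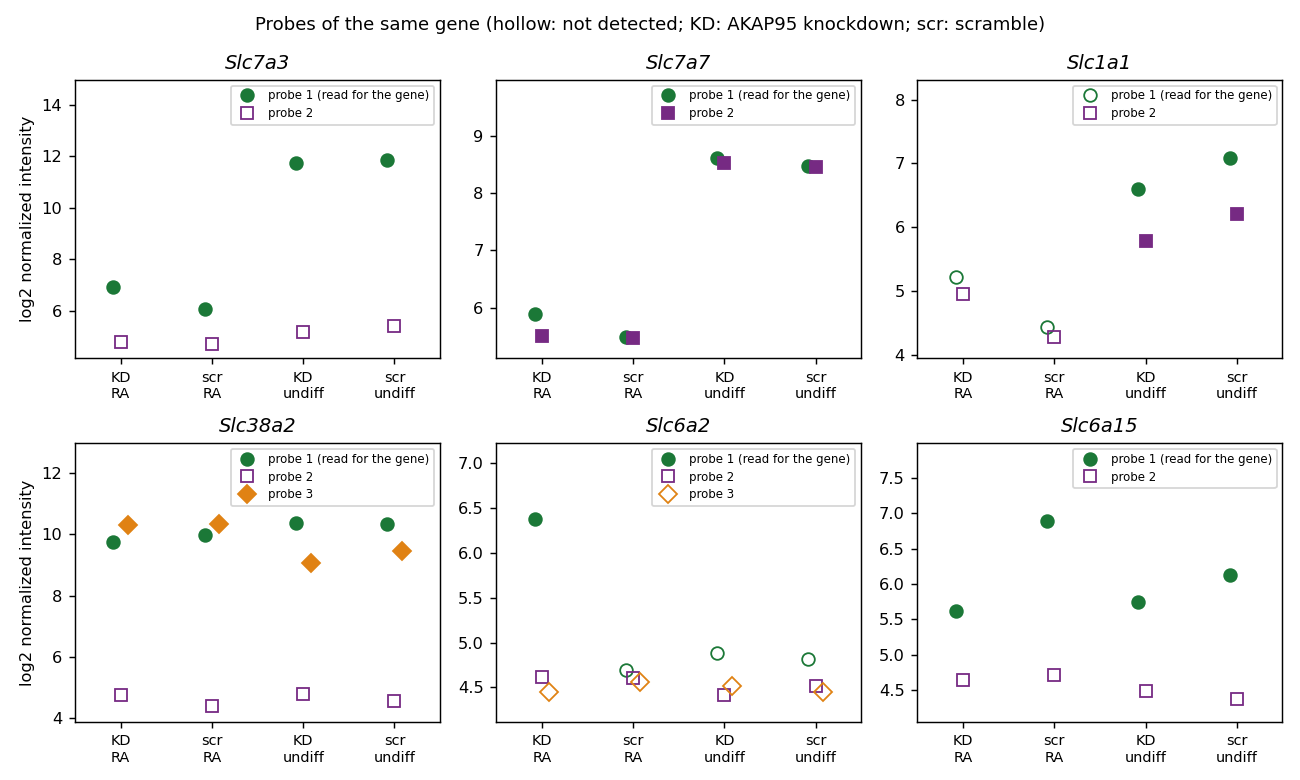
Log2 normalized intensity (vertical axis) of each probe of Slc7a3, Slc7a7, Slc1a1, Slc38a2, Slc6a2 and Slc6a15 on the 4 arrays, hollow where not detected. The probes of Slc7a7 lie close together, those of Slc38a2 move in opposite directions, and for Slc7a3, Slc6a2 and Slc6a15 only 1 probe was detected.

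The Slc6 family held changes in both directions. Slc6a13, a GABA and taurine carrier, had signals of 141.1 in knockdown and 192.4 in scramble cells after RA, against 69.59 in undifferentiated knockdown and 81.96 in undifferentiated scramble cells, where it was not detected. It was at least 1.76-fold higher with RA in knockdown and at least 2.81-fold higher in scramble cells, and it rose in the fit (log2 effect 1.58, SE 0.17, limma adjusted p = 0.0126). Without background correction the scramble difference was 0.93 on the log2 scale, short of 2-fold. Slc6a12, the betaine and GABA carrier, which like Slc6a13 lies on chromosome 6, went the other way. Its signals were 88.99 in knockdown and 75.2 in scramble cells after RA, where it was not detected, against 124.5 in undifferentiated knockdown and 134.5 in undifferentiated scramble cells. It was 2.45-fold lower with RA in knockdown and at least 2.51-fold lower in scramble cells, and it fell in the fit (log2 effect -1.58, SE 0.22, limma adjusted p = 0.0178). Without background correction its differences were -0.74 in knockdown and -0.78 in scramble cells, short of 2-fold.

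Slc6a6, the taurine carrier, had signals of 2187 in knockdown and 2750 in scramble cells after RA, against 3842 in undifferentiated knockdown and 4364 in undifferentiated scramble cells. It was 1.81-fold lower with RA in knockdown and 1.57-fold lower in scramble cells, and it fell in the fit (log2 effect -0.76, SE 0.17, limma adjusted p = 0.0405). Slc6a8, the creatine carrier, had fitted log2 effect -0.58 and did not pass the test (SE 0.16, limma adjusted p = 0.0633). Slc6a9, a glycine carrier, and Slc6a18, a neutral amino acid carrier of the kidney, had fitted effects of 0.22 and 0.01.

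**Figure D4:**
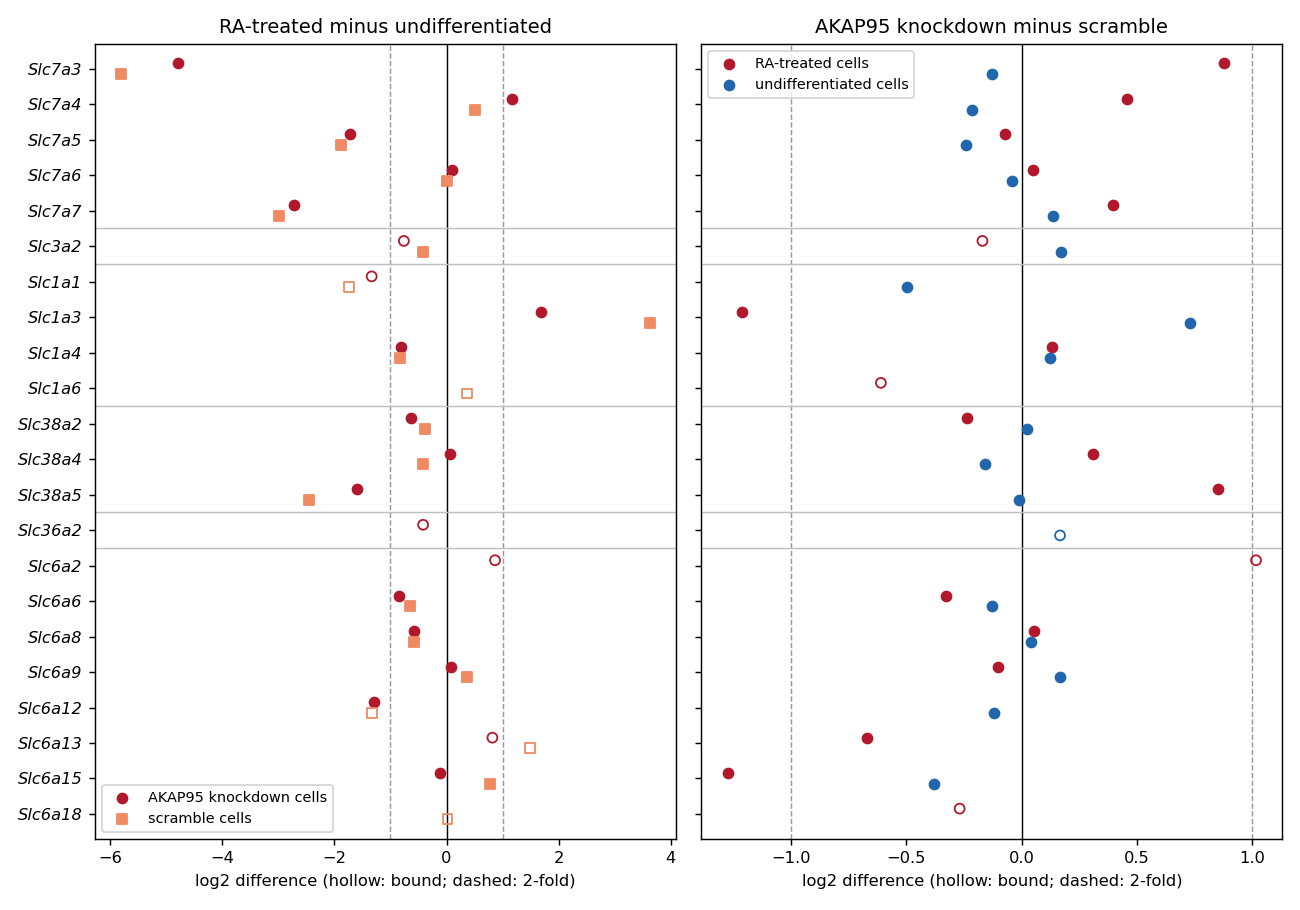
Log2 differences between arrays (horizontal axes) for each carrier: RA-treated minus undifferentiated on the left and AKAP95 knockdown minus scramble on the right, hollow where the value is a bound, with dashed lines at 2-fold. On the right, Slc1a3 stands at -1.22 in RA-treated and 0.73 in undifferentiated cells, and no undifferentiated value reaches 2-fold; carriers detected on neither array of a pair have no point.

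The knockdown was compared with the scramble control within each condition. In undifferentiated cells none of the 18 carriers compared differed by 2-fold, as was the case for nearly all genes, of which 0.0687% were at least 2-fold higher and 0.126% at least 2-fold lower. The carriers' log2 differences, knockdown minus scramble, ran from -0.50 for Slc1a1 to 0.73 for Slc1a3, with a median of -0.03. After RA, 1 of 20 carriers compared was at least 2-fold higher in knockdown than in scramble cells, beside 3.17% of all 9397 genes, and 2 were at least 2-fold lower, beside 3.26%. The 2 lower genes were Slc1a3, at 2.32-fold, and Slc6a15, at 2.42-fold.

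Slc6a15, a neutral amino acid carrier of neurons, had signals of 102.3 in knockdown and 182.3 in scramble cells after RA, against 91.0 in undifferentiated knockdown and 106.3 in undifferentiated scramble cells. The RA-treated scramble array stood above the other 3, and the RA difference was -0.12 in knockdown and 0.77 in scramble cells on the log2 scale. Without background correction its knockdown difference after RA was -0.80. The gene at least 2-fold higher in RA-treated knockdown cells was Slc6a2, the noradrenaline carrier, at least 2.02-fold higher, and 0.57 on the log2 scale without background correction. It had signals of 144.4 in RA-treated knockdown cells, where it was detected, and 70.76 in RA-treated scramble, 71.23 in undifferentiated knockdown and 69.87 in undifferentiated scramble cells. Its other 2 probes were not detected on any array. In RA-treated knockdown cells 4 of the 7 trophoblast markers compared were at least 2-fold higher than in RA-treated scramble cells and 5 of 6 neural markers at least 2-fold lower, and their part in the Slc6a2 and Slc6a15 values was not tested. Slc7a3 and Slc38a5 were 1.84-fold and 1.81-fold higher in RA-treated knockdown than in RA-treated scramble cells, below the 2-fold rule.

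In the limma fit over both conditions no carrier passed for the knockdown effect, and neither did any of the 9875 genes (0%), with a smallest adjusted p of 0.818. Akap8, the targeted gene, was not called either (fitted log2 effect -0.98, limma adjusted p = 0.818). The lack of a call in this fit therefore does not show that a gene was unchanged. At an unadjusted p under 0.05, Slc6a13 and Slc6a15 were counted among the 22 carriers, beside 405 of all genes (4.10%). The additive model averages over both conditions, and Slc1a3, whose knockdown difference had opposite signs after and before RA, had a fitted knockdown effect of -0.24.

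The RA effect in knockdown minus that in scramble cells has no test in this design. Its size was at least 1 on the log2 scale for 4 of the 22 carriers, against 8.10% of all genes, with a median size of 0.54 for carriers and 0.30 for all genes. The 4 were Slc1a3 (-1.95), Slc6a2 (1.62), Slc1a1 (1.29) and Slc7a3 (1.01), on values without bounds. Without background correction Slc1a3 alone of the 4 kept this size (-1.84), with 0.87 for Slc6a2, 0.85 for Slc1a1 and 0.71 for Slc7a3. Slc6a2 and Slc1a1 reached this size with at least 1 array not detected in each comparison, so their values rest partly on signals at background.

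Genes linked to amino acid supply were read from 8 lists, described by counts in the same limma fit for RA, in which 16.2% of all genes fell and 18.8% rose. The list genes were chosen with earlier results in view. Of 21 detected genes of the amino acid response and ATF4 list, 11 fell and 2 rose, with a median log2 effect of -0.69. Nupr1, Trib3, Chac1, Cth, Mthfd2 and Asns were at least 2-fold lower in both populations. Asns, which makes asparagine, had signals of 3894 in knockdown and 3061 in scramble cells after RA, against 12440 in undifferentiated knockdown and 12440 in undifferentiated scramble cells, and its fitted effect was -1.78 (limma adjusted p = 0.0121). Chac1, which degrades glutathione, fell by 3.05 on the log2 scale, and Mthfd2, a mitochondrial folate enzyme, by 2.87. Vldlr, a lipoprotein receptor on the same list, rose by 2.52. The RA effect on Atf4 itself was smaller, at -0.69 (limma adjusted p = 0.0439), and Atf4 was picked after its values were seen.

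Of 17 detected cytosolic aminoacyl-tRNA synthetases, which load tRNAs with amino acids, 9 fell and 1 rose (median -0.72). Nars, Tars and Aars were at least 2-fold lower in both populations, with fitted effects of -1.51, -1.46 and -1.35. The list of glutathione and cystine metabolism had 7 of 10 detected genes that fell and none that rose (median -1.05). Lower by at least 2-fold in both populations were Nqo1, a quinone reductase, and Hmox1, a heme oxygenase, with fitted effects of -2.56 and -2.21, and Ggct and Gclm, enzymes of glutathione turnover and synthesis, with -2.19 and -1.51. Of 9 detected mitochondrial amino acid carriers 5 fell (median -0.67), and of 8 detected glutamate, GABA and glycine enzymes 4 fell (median -0.98), among them Gls2, Glud1 and Shmt1.

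Arginine, the substrate of Slc7a3 and Slc7a7, is used by several enzymes of the arginine, ornithine and polyamine list, where 5 of 12 detected genes fell and 1 rose (median -0.44). Ass1, which forms an arginine precursor, Arg2, Nos3 and the spermidine synthase Srm fell, with fitted effects of -2.41, -2.36, -1.93 and -1.75. Arg1, the arginase of the urea cycle, moved in the opposite direction to Arg2. Its signals were 919.7 in knockdown and 853.0 in scramble cells after RA, against 52.53 in undifferentiated knockdown and 61.88 in undifferentiated scramble cells, where it was not detected (fitted effect 5.14, limma adjusted p = 0.00916). Of 20 detected genes of mTORC1 and amino acid sensing, 3 fell and 2 rose (median 0.15), both below the shares of all genes. Its arginine sensor Castor1 was at least 2-fold lower in both populations (fitted effect -2.42). In the list of vesicular, peptide and other carriers, 2 of 8 detected genes rose, beside the 18.8% of all genes, and none fell, and the peptide carrier Slc15a2 was higher in both populations (fitted effect 2.03).

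Because the rule reads symbols as the deposited annotation spells them, carriers listed there under older names were outside it. Brought up to date, 9 more genes of these families were on the array, 4 of them detected. Slc38a9, the lysosomal arginine sensor, had signals of 238.5 in knockdown and 240.9 in scramble cells after RA, against 115.1 in undifferentiated knockdown and 123.4 in undifferentiated scramble cells, and it rose in the fit (log2 effect 0.94, SE 0.16, limma adjusted p = 0.025). Slc38a8 fell (log2 effect -1.31, SE 0.16, limma adjusted p = 0.0153). It was not detected after RA, and its bounded RA differences, -0.75 in knockdown and -0.77 in scramble cells, were short of 2-fold. Slc38a9 and Slc38a8 were picked after their values were seen.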

How the data were processed

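Total RNA of 4 mouse E14 cultures, 1 per group, was labelled as biotinylated cRNA for Illumina arrays, per the labels' protocols. Per the file headers, the authors deposited 1 intensity (the mean bead signal, linear and not normalized) and 1 detection p-value for every probe on every array. A further deposited table holds a ratio, each intensity divided by its array's median, and another repeats both. Recomputed values matched for all 25697 probes at a relative tolerance of 1e-05. Which scanner software made them, and whether background was subtracted, is not given in the sources used here.

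From the intensities, normexp background correction (negative controls inferred from the detection p-values, offset 16), quantile normalization, log2 values and the additive fits were computed with limma 3.58.1 in R 4.3.3, with Benjamini-Hochberg adjustment at 0.05. Later steps used Python 3.11.15, pandas 2.3.3, numpy 2.4.6 and scipy 1.17.1. Symbols were updated through RefSeq (GRCm38.p6, names and chromosomes only): 23876 probes (92.9%) matched by accession, 728 by symbol and 710 by synonym, and 383 kept the file's name. A gene was read from its probe with the highest mean log2 value. Slc6a20 of the deposited annotation is now Slc6a20b, which is also on the list of other carriers.

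Members, gene lists and markers were chosen with earlier results of these data known. Synthetase symbols were respelled as in RefSeq after the data were seen. Named with all values were detected members at least 2-fold different in a comparison or called in the fit, and list genes at least 2-fold different in both populations, up to 6 per list and direction by mean RA effect. Motif letters were searched on both strands. A fit with 1 residual degree of freedom pools its spread over genes. That spread holds noise and any difference of the RA effect between populations together. No group had replicate cultures, so p-values do not measure the spread between repeated cultures. The number of arrays limits the precision of every value.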

Additional observations from a re-analysis of the deposited data

Results flagged for a closer look

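The knockdown difference of Slc1a3, knockdown minus scramble on the log2 scale, was -1.22 in RA-treated and 0.73 in undifferentiated cells. That of Slc7a3 was 0.88 in RA-treated and -0.13 in undifferentiated cells. Both genes drew attention because the single array pair of each condition differed in the opposite direction. The difference between conditions was not tested, since no residual degree of freedom is left for it. Of these 4 values, that of Slc1a3 in RA-treated cells passed 2-fold. Opposite signs were not particular to these genes. The knockdown difference of Slc7a4 was 0.456 in RA-treated and -0.215 in undifferentiated cells, and that of Slc38a4 was 0.308 in RA-treated and -0.161 in undifferentiated cells.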

How the results depend on the processing

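Results were recomputed under 11 alternatives, and no direction of a called result turned. Of 19 pairwise values of named genes past 2-fold, 11 stayed past it under every alternative run for them, and of 10 carriers called in the limma fit for RA, 7 stayed called. Carriers at least 2-fold higher with RA in knockdown cells numbered 2, against 1 without background correction, 1 with an offset of 50, and 4 each with median scaling, with a detection p under 0.05 and without bounds. Those higher with RA in scramble cells numbered 2, against 1 without background correction. Carriers at least 2-fold lower with RA in knockdown cells numbered 6, against 4 without background correction, with an offset of 50 and with the deposited values. They numbered 5 with the mean of detected probes and 7 with median scaling. In scramble cells the lower carriers numbered 6, against 5 without background correction, 5 with an offset of 50 and 4 with the deposited values. After RA, the 1 carrier higher in knockdown cells became 0, and the 2 lower became 1, without background correction, with an offset of 50 and with the deposited median-normalized values. Carriers that rose in the fit numbered 2, against 1 with all genes in the fit. The limma calls not kept under every alternative were those of Slc1a1, Slc1a3 and Slc1a4. Among pairwise values that fell short of 2-fold were those of Slc6a12 for RA with the deposited values (-0.61 in knockdown and -0.69 in scramble cells). Slc6a12 stayed called in the limma fit. Slc7a4 fell short of 2-fold for RA in knockdown cells without background correction (0.84). Slc7a4 gained a limma call with median scaling (adjusted p = 0.0431) and with the deposited values (adjusted p = 0.0245). The genes that fell with RA among all genes numbered 1604, and 2452 features fell with every detected probe tested. Under median scaling the median RA difference of the genes compared was 0.068 in knockdown and 0.021 in scramble cells, and that of all genes, detected or not and without bounds, was -0.18 in knockdown and -0.12 in scramble cells. The cause of these changes was not tested. The additive fit already pairs the RA-treated and undifferentiated arrays of each population through its shRNA term. No paired analysis was possible by replicate number because each group had 1 array, and leaving out an array leaves no residual degree of freedom. Folds are limited where a signal lies near background.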
